A study of Rattus norvegicus with 9 samples.

Results

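The fibroblast growth factor (FGF) ligand and receptor genes described here are 10 of the 17337 genes counted in cultured rat cardiac fibroblasts, the connective-tissue cells that make the matrix of the heart. They were taken as a fixed list of gene symbols, 6 secreted ligands (Fgf1, Fgf2, Fgf7, Fgf9, Fgf10 and Fgf18) and 4 receptors (Fgfr1, Fgfr2, Fgfr3 and Fgfr4). All 10 had enough counts to be among the 11337 genes tested. RNA was sequenced from 9 cultures of Sprague Dawley rat cells, and the design asks how expression differs between 3 developmental ages. Fetal cells were isolated at embryonic day 18, neonatal cells at postnatal day 1 and adult cells from rats of 7 weeks, with 3 libraries per age. All of them were passage 0 cells that had been grown until confluent in T75 flasks, in DMEM containing 10% fetal bovine serum, penicillin and streptomycin and 0.1 mM ascorbic acid. The labels name no sort of the cells, no number of animals per culture and no added growth factor, and nothing says whether the libraries of 1 age came from separate animals, so the p-values measure only the spread between these samples.

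FGFs are secreted proteins that bind receptor tyrosine kinases together with heparan sulfate on the cell surface. The bound receptor dimerises and phosphorylates the adaptor Frs2, and the signal passes through Ras, Raf and MEK to ERK, which switches on feedback inhibitors such as the Sprouty and DUSP proteins. In the heart FGFs from the epicardium, endocardium and mesenchyme promote growth of the muscle before birth, and Fgf2 is a mitogen of fibroblasts. Fgfr1, Fgfr2 and Fgfr3 are each spliced into IIIb forms, typical of epithelium, and IIIc forms, typical of mesenchyme. Counts per gene do not separate these forms.

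The libraries held 13392825 to 22850491 assigned counts, and the 3 adult libraries were the shallowest. Levels are given as counts per 1000000 counts (CPM), scaled between libraries by TMM, and differences are log2 fold changes from 1 edgeR fit over all 9 libraries, called where the Benjamini-Hochberg adjusted p over all 11337 genes was under 0.05. The fibroblast markers Col1a1 and Col3a1 were abundant in all libraries (11890 to 40025 and 7294 to 31564 CPM), while Col1a2, another marker of the type, was listed at under 1 CPM in all 9. The 10 fibroblast markers summed to 23654 to 50437 CPM in fetal libraries, with fetal replicate 3 lowest, 67927 to 74193 CPM in neonatal and 22236 to 29822 CPM in adult libraries. Most of each sum was Col1a1 and Col3a1, and single markers differed in direction. In every adult library 3 of the 10 (Pdgfra, Tcf21 and Dcn) were higher than in any other library, and 2 (Ddr2 and Lum) were lower. Markers of other cell types were present and differed between ages. The summed level of 11 cardiomyocyte markers was 7071 to 10717 CPM in fetal, 5067 to 5617 CPM in neonatal and 304 to 319 CPM in adult libraries, and all 11 were lower in every adult library than in every other library, with Csrp3 at 0. The summed level of 12 macrophage markers was 14.8 to 72.4 CPM in fetal, 164 to 180.0 CPM in neonatal and 4310 to 6085 CPM in adult libraries, and all 12 were higher in every adult library. Mural markers summed to 1441 to 2287, 2711 to 2780 and 312 to 699 CPM in fetal, neonatal and adult libraries, endothelial markers to 22.7 to 23.5, 30.1 to 34.96 and 105 to 114 CPM, and epicardial or mesothelial markers to 131 to 192, 141 to 148 and 209 to 495 CPM. Of 10 endothelial markers, 4 were higher and 1 lower in every adult library than in any other, and Tie1 made up most of the adult sum (68.6 to 72.5 CPM). Of 6 epicardial or mesothelial markers, only Aldh1a2 was higher in every adult library (169 to 437 CPM), and 3 were lower in every adult library. Of 4 genes listed as lung mesenchymal, Tbx4 and Tbx5 were higher in every fetal library than in any other library. They stood at 38.5 to 53.3 and 10.8 to 15.9 CPM in fetal libraries, and at most 5.05 and 1.76 CPM elsewhere. Tcf21, also on the fibroblast list, went the other way (6.91 to 14.4 CPM in fetal libraries and at least 84.7 CPM elsewhere), and Nkx6-1 stayed under 1 CPM. Fetal replicate 3 stood apart from the other fetal libraries. Its macrophage markers summed to 72.4 CPM against 15.2 and 14.8 CPM in fetal replicates 1 and 2. Of these 12 markers, 11 were higher in it than in both. Its mural markers summed to 1441 CPM against 2287 and 2260 CPM. Its 10 lung epithelial markers summed to 278 CPM against 65.0 and 64.7 CPM in fetal replicates 1 and 2. Most of the sum in replicates 1 and 2 was Etv5 (58.8 CPM in each), which is also an ERK target. Etv5 was lower in replicate 3 (41.5 CPM). Higher in replicate 3 than in both were 7 of the 10, among them Cdh1 at 113 CPM against 1.30 and 2.34 CPM. Cldn18 stood at 58.5 CPM against 1.35 and 1.15 CPM, and Epcam at 47.0 CPM against 0.702 and 0.529 CPM. Nkx2-1 stood at 9.83 CPM against 0.108 and 0.132 CPM. The surfactant genes Sftpb and Sftpa1 were at 0 in all libraries. This library gave the highest fetal value for 6 of the FGF genes and the lowest for the other 4.

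Fgfr3, Fgfr4 and the ligand Fgf10 rose from fetal to both neonatal and adult cultures, and the ligands Fgf7 and Fgf18 fell to both. Between neonatal and fetal cultures 6 of the 10 genes were called, 4 higher and 2 lower, where 36.3% of all tested genes were called, 18.3% higher and 18% lower. Between adult and fetal cultures 6 of the 10 were called, 3 higher and 3 lower, against 70.5% of all tested genes, 34.9% higher and 35.5% lower. Between adult and neonatal cultures 4 of the 10 were called, 2 in each direction, against 63.5% of all tested genes, 31.6% higher and 31.8% lower. With 10 genes the gaps to the background are a few genes and were not tested. Groups did not overlap for 7, 7 and 6 of the 10 genes in these comparisons, where 57.4%, 71.8% and 76.1% of all tested genes did not overlap. The median log2 fold change of the 10 genes was 0.36, 0.26 and 0.36, and that of all tested genes was -0.0053, -0.013 and -0.0065. Scaling by library size alone moved the median of all tested genes in the neonatal comparison with fetal to -0.18, and 29% rather than 50.4% of the called genes were then higher. The neonatal and adult comparisons with fetal share the 3 fetal libraries, and 13.6% of all tested genes were called higher in both and 13.3% lower in both.

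**Figure D1:**
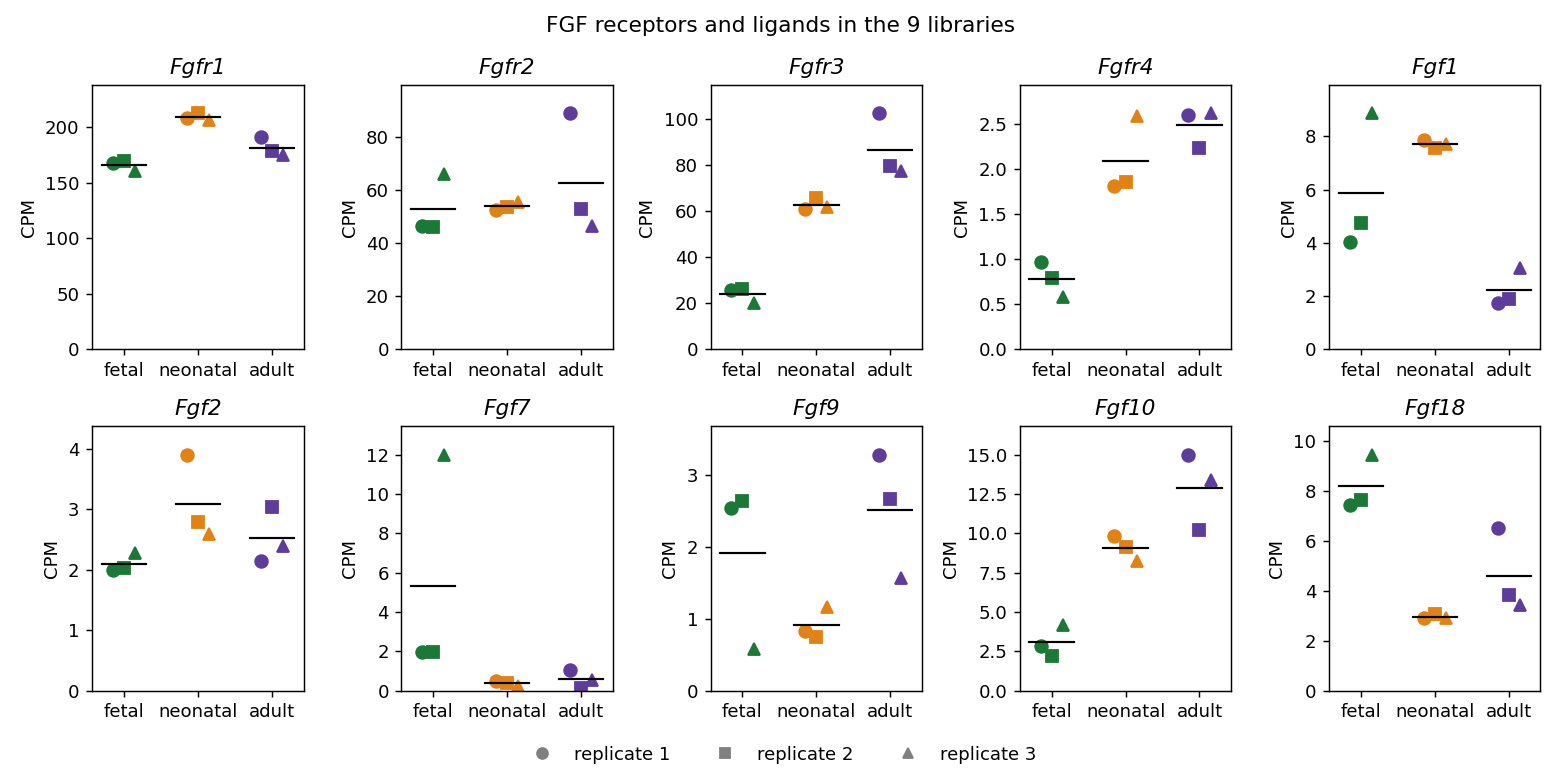
CPM of each FGF gene (y axis, from 0) in the 9 libraries by age (x axis), with circles, squares and triangles for replicates 1, 2 and 3 and a line at the mean of each age. Fgfr3 and Fgf10 show all neonatal and adult points above all fetal points, and the triangle of fetal replicate 3 lies far above the other fetal points for Fgf7 (12 CPM).

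**Figure D2:**
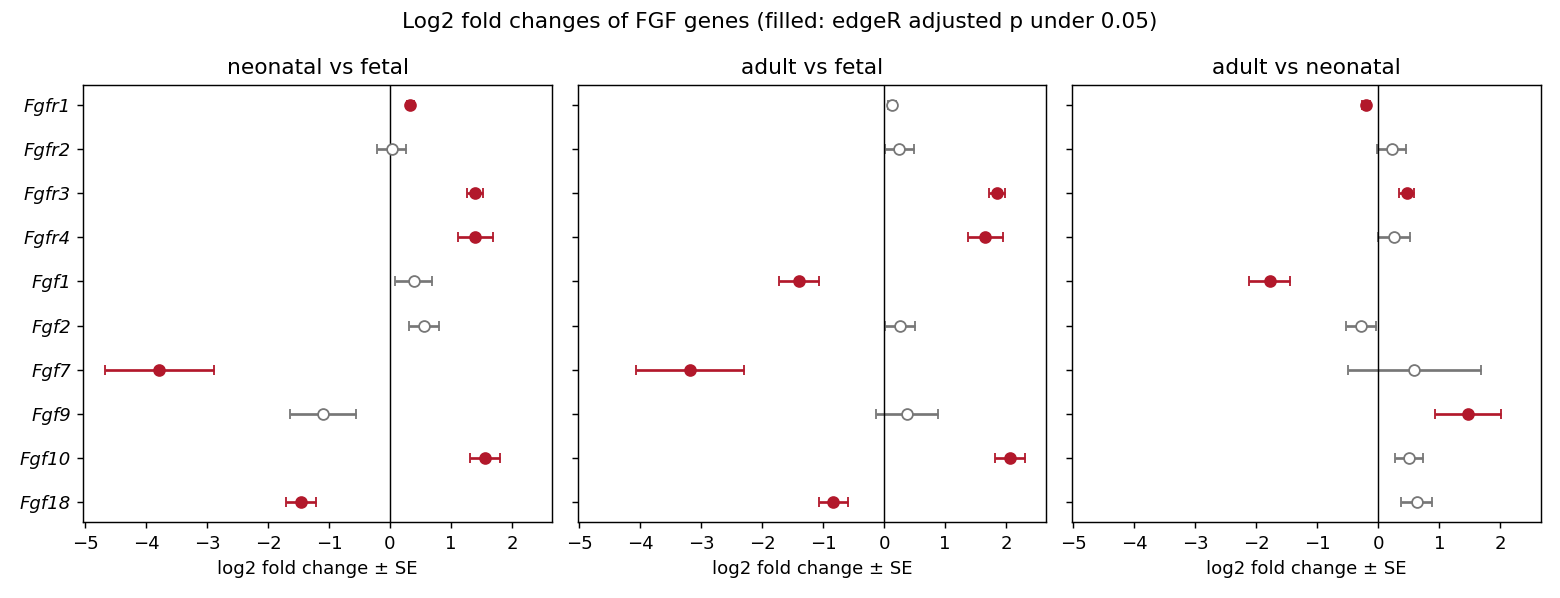
Log2 fold changes of the 10 genes (x axis) in the 3 pairs of ages, as points with bars of 1 standard error. Filled points passed an edgeR adjusted p of 0.05 and open points did not, with 6, 6 and 4 filled points from left to right.

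Fgfr1, the receptor that fibroblasts use most widely, was by far the most abundant of the 10 genes per kilobase of exon. The gene lies at chr16:71266278-71306299 on the minus strand of rn6. Its level was 168, 169.7 and 160.5 CPM in fetal replicates 1, 2 and 3, 208.7, 212.7 and 206.5 CPM in the neonatal replicates, and 191, 178 and 175 CPM in the adult replicates. The groups did not overlap in any pair of ages, with neonatal cultures highest, adult cultures between and fetal cultures lowest. Fgfr1 rose 1.26-fold from fetal to neonatal cultures (log2 0.33 ± 0.0585 SE, edgeR adjusted p = 0.00266) and fell by 0.21 on the log2 scale from neonatal to adult cultures (SE 0.0585, edgeR adjusted p = 0.0123). The adult minus fetal difference of 0.13 was not called (edgeR adjusted p = 0.0748), though DESeq2 called it (adjusted p = 0.0447). The neonatal versus fetal and adult versus neonatal calls were lost when libraries were scaled by their size alone (edgeR adjusted p = 0.0561 and 0.0633). Here as in all bulk samples, fewer cells of a type and less RNA per cell cannot be told apart.

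Fgfr3 rose in all 3 comparisons. This receptor restrains the growth of cartilage in the skeleton and binds Fgf9 and Fgf18 through its IIIc form. The gene is annotated at chr14:82273070-82287108 on the minus strand of rn6. Its level was 25.8, 26.1 and 20.1 CPM in fetal replicates 1, 2 and 3, 60.9, 65.9 and 62.0 CPM in the neonatal replicates, and 103, 79.7 and 77.5 CPM in the adult replicates. Each age lay wholly above the age before it, and adult replicate 1 was the highest of all. Fgfr3 rose 2.62-fold from fetal to neonatal cultures (log2 1.39 ± 0.133 SE, edgeR adjusted p = 0.000114), 3.61-fold from fetal to adult cultures (log2 1.85 ± 0.134 SE, edgeR adjusted p = 2.04e-06) and 1.38-fold from neonatal to adult cultures (log2 0.46 ± 0.128 SE, edgeR adjusted p = 0.0110). All 3 calls held under the 16 alternative settings run. Fgfr3 is also a cartilage gene, and 9 cartilage markers summed to 178 to 224 CPM in fetal, 277 to 296 CPM in neonatal and 66.3 to 128 CPM in adult libraries. Most of each sum was Acan and Sox9. Acan stood at 89.0 to 117 CPM in fetal and neonatal libraries and at 0.144 to 0.153 CPM in adult libraries. Sox9 stood at 33.7 to 77.1 CPM in fetal, 170 to 186 CPM in neonatal and 59.1 to 120 CPM in adult libraries. Of these 9, Col11a2 was higher in every adult library (4.90 to 5.35 CPM) than in any other library (2.59 to 3.89 CPM), 4 were lower in every adult library than in any other, and Col2a1, Col9a1, Matn1 and Hapln1 were at 0 in all adult libraries. Matn1 was above 0 only in fetal replicate 2 (0.0441 CPM), and Col9a1 was at most 0.0647 CPM in neonatal libraries. The macrophage markers given above were highest in adult libraries too, and their part in the adult levels of Fgfr3, Fgfr4 and Fgf10 was not tested.

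Fgfr4, a receptor best known in liver and muscle, was the rarest receptor and rose with Fgfr3. It is located at chr17:9990072-10004321 on the minus strand of rn6, and only 11 to 40 counts per library fell on it. Its level was 0.972, 0.794 and 0.584 CPM in fetal replicates 1, 2 and 3, 1.82, 1.86 and 2.59 CPM in the neonatal replicates, and 2.60, 2.24 and 2.62 CPM in the adult replicates. Every neonatal and adult library lay above every fetal library, and the neonatal and adult libraries overlapped. Fgfr4 rose 2.64-fold from fetal to neonatal cultures (log2 1.40 ± 0.283 SE, edgeR adjusted p = 0.00533) and 3.15-fold from fetal to adult cultures (log2 1.66 ± 0.286 SE, edgeR adjusted p = 0.000591). The adult minus neonatal difference of 0.26 ± 0.265 SE was not called (edgeR adjusted p = 0.417).

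Fgfr2, the receptor through which Fgf7 and Fgf10 act in its IIIb form, was not called in any pair of ages. On rn6 the gene lies at chr1:200590951-200696928 (minus strand). Its level was 46.3, 46.0 and 66.0 CPM in fetal replicates 1, 2 and 3, 52.5, 53.7 and 55.5 CPM in the neonatal replicates, and 88.9, 52.7 and 46.4 CPM in the adult replicates. A single fetal library and a single adult library were high, and the groups overlapped in every pair. The log2 differences were 0.03 ± 0.235 SE for neonatal minus fetal, 0.25 ± 0.236 SE for adult minus fetal and 0.22 ± 0.236 SE for adult minus neonatal (edgeR adjusted p = 0.932, 0.370 and 0.445). Without adult replicate 1 the adult differences were -0.09 and -0.12.

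The promoters of Fgfr3 and Fgfr4 are shown because these 2 receptors rose together. Of the 10 genes, 9 matched an entry in the RefSeq promoter table, whose build is GRCr8, and the 250 bases before each start were read 5′ to 3′ on the gene's strand. The Fgfr3 window is chr14:81227210-81227459 and the Fgfr4 window is chr17:9481390-9481639, both on the minus strand of GRCr8. Capitals mark GC boxes, the letters GGGCGG or, on the other strand, CCGCCC.
Fgfr3: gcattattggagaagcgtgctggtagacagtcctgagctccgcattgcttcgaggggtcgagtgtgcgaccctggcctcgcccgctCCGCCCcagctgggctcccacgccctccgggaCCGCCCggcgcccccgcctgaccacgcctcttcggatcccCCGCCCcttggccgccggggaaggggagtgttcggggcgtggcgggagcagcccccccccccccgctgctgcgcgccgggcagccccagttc
Fgfr4: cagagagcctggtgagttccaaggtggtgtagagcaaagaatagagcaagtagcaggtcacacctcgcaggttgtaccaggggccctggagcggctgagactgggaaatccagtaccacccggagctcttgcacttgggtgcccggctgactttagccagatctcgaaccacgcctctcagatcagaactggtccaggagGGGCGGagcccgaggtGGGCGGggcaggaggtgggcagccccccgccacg
The Fgfr3 window held 3 GC boxes at 74.4% G and C, and the Fgfr4 window held 2 at 62.8%. Of all 33469 windows of that length in the table, 30.5% held a GC box, and the median was 51.2% G and C. Fgfr2, which was not called, held 2 GC boxes at 76.8%, and a link between the box and expression was not tested. Over the 9 matched genes 4 held a GC box, 1 held the TATA box letters TATAAA (12.9% of all windows) and 3 held the CCAAT letters (34.0% of all windows), counting both strands, and no 2 matches overlapped. These are matches of letters and not measured sites.

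**Figure D3:**
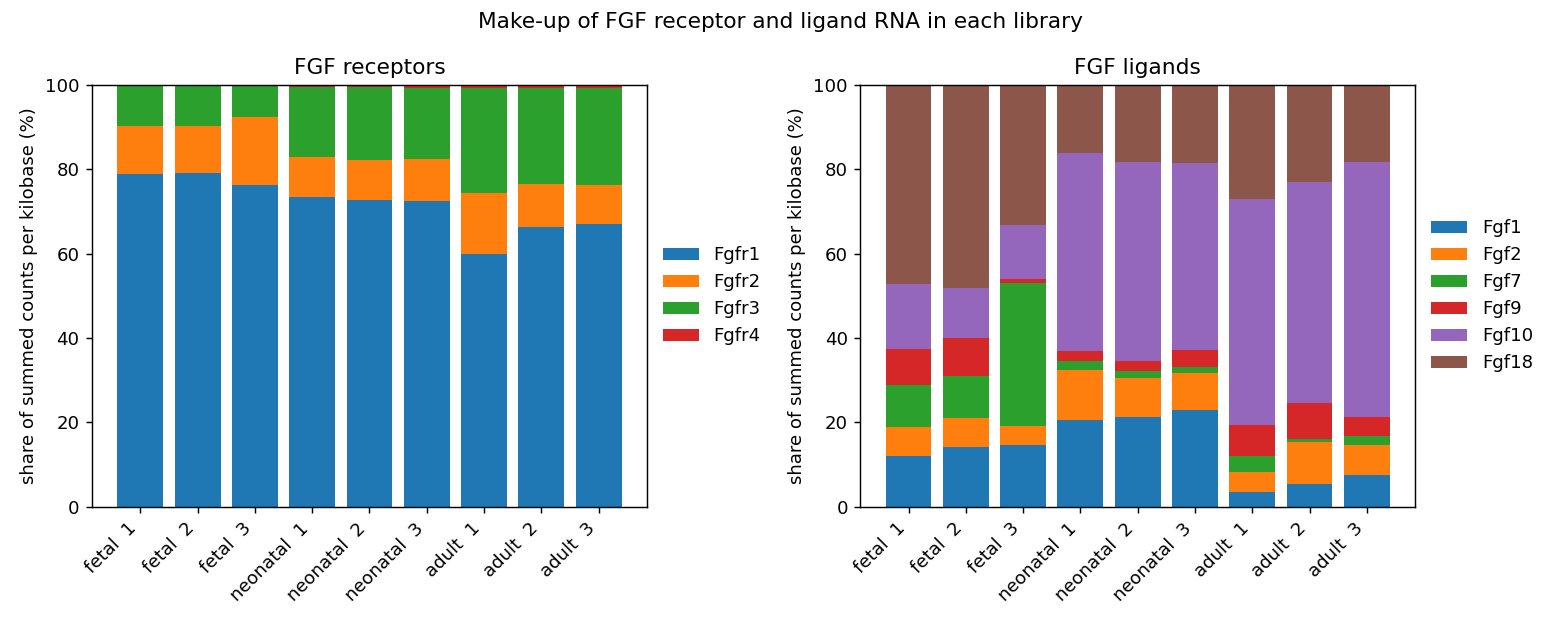
Share in percent of each receptor in the summed counts per kilobase of Fgfr1 to Fgfr4 (left) and of each ligand in that of the 6 ligands (right), with 1 bar per library. The Fgfr1 segment shrinks from 76.2 to 79.2% in fetal bars to 60.0 to 67.0% in adult bars while the Fgfr3 segment widens, and Fgf10 is the widest ligand segment in every neonatal and adult bar.

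Per kilobase of exon, the mix of receptors shifted from Fgfr1 towards Fgfr3 with age. Fgfr1 made up 79.0%, 79.2% and 76.2% of the summed counts per kilobase of the 4 receptors in fetal replicates 1, 2 and 3, 73.4%, 72.6% and 72.4% in the neonatal replicates, and 60.0%, 66.3% and 67.0% in the adult replicates. No age overlapped another. The Fgfr1 share differed among the 3 ages by an exact permutation test over 1680 assignments (p = 0.00357, the smallest such a test can give, and 0.00714 after adjustment over the 2 shares tested). Each pair of ages gave an exact two-sided permutation p of 0.1, the smallest that 3 against 3 allows, for differences of -5.32, -13.7 and -8.36 percentage points (neonatal minus fetal, adult minus fetal, adult minus neonatal). The Fgfr3 share was 8.74% ± 1.17 (SD, n = 3) in fetal, 16.9% ± 0.425 in neonatal and 23.6% ± 1.13 in adult cultures. The Fgfr4 share stayed under 0.8% in every library.

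The Fgfr1 result depended on which receptors were summed. Fgfrl1 is an FGF receptor without a kinase domain, and it is described here after its values were seen because this result turned on it. Its level was 85.0, 80.8 and 46.9 CPM in fetal replicates 1, 2 and 3, 55.2, 59.5 and 60.4 CPM in the neonatal replicates, and 24.0, 22.2 and 24.9 CPM in the adult replicates. All adult libraries lay below all others, and Fgfrl1 fell by 1.58 on the log2 scale from fetal to adult cultures (SE 0.198, edgeR adjusted p = 8.38e-05) and by 1.30 from neonatal to adult cultures (SE 0.198, edgeR adjusted p = 0.000384). With Fgfrl1 in the sum the adult minus fetal difference in the Fgfr1 share was 1.14 percentage points and no longer differed among ages by the exact permutation test (p = 0.675).

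In RPKM, which is CPM per kilobase of exon, the 4 receptors together reached 86.1 ± 0.738 (SD, n = 3) in fetal, 116.5 ± 1.89 in neonatal and 114.6 ± 12.7 in adult cultures. The 6 ligands together reached 36.1 ± 13 RPKM, 30.3 ± 2.0 RPKM and 35.8 ± 6.76 RPKM. The summed level of these 4 receptors was thus higher after birth. The summed ligand level differed between ages by less than its spread in fetal libraries. Fgfrl1, left out of the receptor sum, went the other way, with means of 30.2, 24.8 and 10.1 RPKM in fetal, neonatal and adult cultures. With Fgfrl1 added, the fetal and adult libraries overlapped in their receptor sums, so the adult rise also depended on which receptors were summed. No test was run on these sums.

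Fgf10 showed the largest rise among the ligands. It is a mesenchymal ligand needed for limb and lung buds, and it is made in the developing epicardium and outflow region of the heart. The gene lies at chr2:51673480-51747533 on the plus strand of rn6. Its level was 2.86, 2.20 and 4.20 CPM in fetal replicates 1, 2 and 3, 9.85, 9.15 and 8.22 CPM in the neonatal replicates, and 15, 10.2 and 13.4 CPM in the adult replicates. Each age lay wholly above the age before it. Fgf10 rose 2.95-fold from fetal to neonatal cultures (log2 1.56 ± 0.243 SE, edgeR adjusted p = 0.00150) and 4.18-fold from fetal to adult cultures (log2 2.06 ± 0.244 SE, edgeR adjusted p = 5.09e-05), and both calls held under the 16 alternative settings run. The adult minus neonatal difference of 0.50 ± 0.228 SE was not called (edgeR adjusted p = 0.0816), but it was called without fetal replicate 3 (edgeR adjusted p = 0.0153), without adult replicate 2 and in a fit of these 2 ages alone.

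Fgf18, a ligand of bone, cartilage and lung mesenchyme, moved the other way. It is located at chr10:18047109-18063391 on the minus strand of rn6. Its level was 7.45, 7.63 and 9.46 CPM in fetal replicates 1, 2 and 3, 2.92, 3.07 and 2.91 CPM in the neonatal replicates, and 6.50, 3.83 and 3.44 CPM in the adult replicates. Fetal libraries were highest, neonatal libraries lowest and no groups overlapped. Tbx4 and Tbx5, listed above as lung mesenchymal, were highest in fetal libraries too. On the same list Tcf21 was lowest there and Nkx6-1 stayed under 1 CPM. The summed cardiomyocyte markers given above were also highest in fetal libraries. The part of other cell types in the fetal levels of Fgf18 and Fgf7 was not tested. Fgf18 fell by 1.46 on the log2 scale from fetal to neonatal cultures (SE 0.244, edgeR adjusted p = 0.00210), a 2.75-fold difference, and by 0.83 from fetal to adult cultures (SE 0.240, edgeR adjusted p = 0.0114), a 1.78-fold difference. The adult minus neonatal difference of 0.63 ± 0.251 SE missed the threshold (edgeR adjusted p = 0.0525), and 6 of the 16 alternative settings called it, DESeq2 among them and those without fetal replicate 3, adult replicate 2 or adult replicate 3.

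Fgf7, the keratinocyte growth factor that mesenchyme sends to epithelium, had few counts outside the fetal libraries. On rn6 the gene lies at chr3:118317761-118366872 (plus strand). It had 36, 45 and 226 counts in fetal replicates 1, 2 and 3, 9, 8 and 4 counts in the neonatal replicates, and 14, 2 and 7 counts in the adult replicates. These counts correspond to 1.94, 1.98 and 12 CPM, to 0.495, 0.372 and 0.259 CPM and to 1.07, 0.144 and 0.524 CPM. Fetal libraries were all above the others, and fetal replicate 3 was far above its own group. Its summed lung epithelial and macrophage markers given above were also higher than in fetal replicates 1 and 2. The part of that library's other cells in its Fgf7 level was not tested. Fgf7 fell by 3.78 on the log2 scale from fetal to neonatal cultures (SE 0.896, edgeR adjusted p = 0.0116) and by 3.19 from fetal to adult cultures (SE 0.882, edgeR adjusted p = 0.00975). Without fetal replicate 3 both differences were smaller but called, at -2.35 (edgeR adjusted p = 0.00303) and -1.77 (edgeR adjusted p = 0.00644), and without adult replicate 1 the second was -3.96. The neonatal call was lost without neonatal replicate 2 (edgeR adjusted p = 0.0503).

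Fgf1, a ligand that binds all FGF receptors and leaves cells without a signal peptide, was lowest in adult cultures. The gene is annotated at chr18:32336102-32357074 on the plus strand of rn6. Its level was 4.05, 4.76 and 8.87 CPM in fetal replicates 1, 2 and 3, 7.87, 7.57 and 7.70 CPM in the neonatal replicates, and 1.76, 1.88 and 3.07 CPM in the adult replicates. All adult libraries lay below all others, and fetal replicate 3 alone carried the fetal range above the neonatal one. Fgf1 fell by 1.39 on the log2 scale from fetal to adult cultures (SE 0.332, edgeR adjusted p = 0.00410) and by 1.78 from neonatal to adult cultures (SE 0.331, edgeR adjusted p = 0.00117). These are 2.63-fold and 3.44-fold differences, called under the 16 alternative settings run. The neonatal minus fetal difference of 0.39 ± 0.300 SE was not called (edgeR adjusted p = 0.332), but without fetal replicate 3 it was 0.80 and called (edgeR adjusted p = 0.00883).

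Fgf9, a ligand of the epicardium and endocardium, was called in 1 comparison, higher in adult than in neonatal cultures. The gene lies at chr15:38341657-38386914 on the plus strand of rn6, and 11 to 60 counts per library fell on it. Its level was 2.54, 2.65 and 0.584 CPM in fetal replicates 1, 2 and 3, 0.826, 0.744 and 1.17 CPM in the neonatal replicates, and 3.29, 2.67 and 1.57 CPM in the adult replicates. Adult libraries lay above neonatal ones, and fetal replicate 3 lay below all others. Fgf9 rose 2.77-fold from neonatal to adult cultures (log2 1.47 ± 0.542 SE, edgeR adjusted p = 0.0381), a call that 5 of the 6 settings without 1 of these libraries lost (without any neonatal replicate, adult replicate 1 or adult replicate 2, edgeR adjusted p up to 0.117). The neonatal minus fetal difference of -1.09 ± 0.536 SE was not called (edgeR adjusted p = 0.137), and without fetal replicate 3 it was -1.53 and called (edgeR adjusted p = 0.00397). The adult minus fetal difference of 0.38 ± 0.504 SE was not called (edgeR adjusted p = 0.519) and was -0.05 without that library.

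Fgf2, the classical fibroblast mitogen, was not called in any pair of ages. On rn6 the gene lies at chr2:124081072-124134133 (plus strand). Its level was 2.0, 2.03 and 2.28 CPM in fetal replicates 1, 2 and 3, 3.91, 2.79 and 2.59 CPM in the neonatal replicates, and 2.14, 3.03 and 2.40 CPM in the adult replicates. Neonatal libraries lay above fetal ones, and adult libraries overlapped both. The log2 differences were 0.56 ± 0.242 SE for neonatal minus fetal, 0.26 ± 0.249 SE for adult minus fetal and -0.29 ± 0.245 SE for adult minus neonatal (edgeR adjusted p = 0.0993, 0.362 and 0.319). None of the 16 alternative settings called any of them.

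The promoters of the 3 ligands called in both comparisons with fetal cultures are shown to set the ligand that rose beside those that fell. On GRCr8 the windows are chr2:52533689-52533938 on the plus strand for Fgf10, chr10:18240883-18241132 on the minus strand for Fgf18 and chr3:133735377-133735626 on the plus strand for Fgf7. Capitals again mark GC boxes.
Fgf10: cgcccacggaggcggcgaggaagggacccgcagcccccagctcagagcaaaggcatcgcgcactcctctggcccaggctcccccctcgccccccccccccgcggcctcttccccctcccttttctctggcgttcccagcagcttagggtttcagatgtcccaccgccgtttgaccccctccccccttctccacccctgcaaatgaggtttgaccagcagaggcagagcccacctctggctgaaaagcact
Fgf18: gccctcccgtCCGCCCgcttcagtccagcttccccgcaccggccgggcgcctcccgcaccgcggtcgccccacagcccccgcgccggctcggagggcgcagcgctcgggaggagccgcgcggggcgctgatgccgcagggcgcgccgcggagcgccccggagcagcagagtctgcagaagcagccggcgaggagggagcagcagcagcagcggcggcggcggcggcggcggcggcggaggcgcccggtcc
Fgf7: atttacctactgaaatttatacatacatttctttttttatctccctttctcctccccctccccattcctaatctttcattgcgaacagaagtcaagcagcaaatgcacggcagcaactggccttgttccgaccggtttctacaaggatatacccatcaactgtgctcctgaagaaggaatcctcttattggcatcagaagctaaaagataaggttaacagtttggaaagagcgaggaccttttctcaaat
Fgf10, which rose, held no GC box at 67.2% G and C. Fgf18 and Fgf7, which both fell, differed in these windows, with 1 GC box at 82.0% G and C for Fgf18 and none at 41.6% for Fgf7. The Fgf7 window also held 1 match to the TATA box letters and 1 to the CCAAT letters, neither marked above. Both matches were on the other strand, and the TATA match lay near the end of the window farthest from the start. The G and C content of the Fgf10 window thus lay between those of Fgf7 and Fgf18. With 3 windows no link between composition and expression could be judged, and it was not tested.

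Per kilobase of exon Fgf18 was the main ligand in fetal replicates 1 and 2, Fgf7 was slightly above it in fetal replicate 3, and Fgf10 was the main ligand in every neonatal and adult library. Fgf18 made up 42.8% ± 8.26 (SD, n = 3) of the summed counts per kilobase of the 6 ligands in fetal, 17.7% ± 1.28 in neonatal and 22.8% ± 4.47 in adult cultures. Fgf10 made up 13.4% ± 1.90 in fetal, 46.1% ± 1.38 in neonatal and 55.5% ± 4.44 in adult cultures. Fgf7 made up 9.84% and 10.0% in fetal replicates 1 and 2 but 33.9% in fetal replicate 3, where Fgf18 made up 33.3%, and at most 3.58% in any neonatal or adult library. The Fgf1 share was highest in neonatal cultures, at 21.5% ± 1.2 against 13.6% ± 1.39 in fetal and 5.44% ± 2.08 in adult cultures. The Fgf2 share, the ligand share that was tested, was 6.09% ± 1.47, 9.98% ± 1.62 and 7.25% ± 2.55 and did not pass an exact permutation test over the 3 ages (p = 0.164).

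The order of the genes by RPKM was led by Fgfr1 at every age, at 67.3 ± 1.97 (SD, n = 3), 84.8 ± 1.26 and 73.5 ± 3.48 RPKM in fetal, neonatal and adult cultures. In fetal cultures Fgf18 followed at 14.7 ± 2.0 RPKM, then Fgfr2 at 11.1 ± 2.40, Fgf7 at 7.67 ± 8.37, Fgfr3 at 7.53 ± 1.07, Fgf1 at 4.97 ± 2.20 and Fgf10 at 4.77 ± 1.57, each overlapping the next in its range over libraries. Fgf2 and Fgf9, at 2.07 ± 0.155 and 1.87 ± 1.13 RPKM, also overlapped, and Fgfr4 was lowest at 0.249 ± 0.0618 RPKM. In neonatal cultures Fgfr3 stood next to Fgfr1 at 19.7 ± 0.815 RPKM, ahead of Fgf10 at 14 ± 1.26 and Fgfr2 at 11.3 ± 0.312, and Fgf1, Fgf18 and Fgf2 followed at 6.51 ± 0.125, 5.34 ± 0.158 and 3.05 ± 0.700 RPKM. Only Fgf9, Fgfr4 and Fgf7 at the low end of the neonatal order, at 0.885 ± 0.217, 0.665 ± 0.138 and 0.542 ± 0.171 RPKM, overlapped their neighbours. In adult cultures Fgfr3 again stood next at 27.2 ± 4.36 RPKM and Fgf10 after it at 19.9 ± 3.79 RPKM, overlapping Fgfr2 at 13.1 ± 4.81, which overlapped Fgf18 at 8.28 ± 3.0. Below a gap, the adult levels of Fgf2, Fgf9, Fgf1, Fgf7 and Fgfr4 ran from 2.48 ± 0.452 to 0.792 ± 0.0685 RPKM, each overlapping the next. Fgf10 thus ranked above Fgfr2 by its mean after birth and below Fgf1 before it. Exon lengths of the annotated models ran from 555 bases (Fgf18) to 4774 bases (Fgfr2), and 5 of the 10 were multiples of 3, so levels between genes depend on how complete those models are.

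The other secreted ligands were scarce. Of 12 listed, 11 were in the table, and Fgf3, Fgf4, Fgf6, Fgf8 and Fgf20 had no count in any library. Only Fgf22 had enough counts to be tested, at 2.51 ± 0.790 (SD, n = 3), 2.38 ± 0.164 and 1.70 ± 0.472 CPM in fetal, neonatal and adult cultures, and it was not called in any pair of ages, though without fetal replicate 3 the adult minus fetal difference of -0.70 was (edgeR adjusted p = 0.0477). The intracellular FGF homologous factors, which bind sodium channels rather than receptors, fell with age in the 2 genes tested. Fgf13 stood at 10.9 ± 0.604 CPM in fetal and 3.66 ± 0.533 CPM in neonatal cultures and at 0 to 2 counts in the adult libraries. Against a floor of 3 counts per library its adult level was at least 48.7-fold lower than the fetal and at least 16.4-fold lower than the neonatal level (edgeR adjusted p = 7.2e-07 and 9.1e-06). From fetal to neonatal cultures Fgf13 fell by 1.57 on the log2 scale (edgeR adjusted p = 0.00184). Fgf12 fell by 1.43 from fetal to neonatal cultures (edgeR adjusted p = 0.00363) and by 2.71 from fetal to adult cultures (edgeR adjusted p = 3.76e-05), and it stood at 4.08 ± 0.450, 1.51 ± 0.410 and 0.618 ± 0.140 CPM in fetal, neonatal and adult cultures. The summed cardiomyocyte markers given above were lower in the same order of ages, and their part in these results was not tested.

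Among co-receptors and heparan sulfate genes, 5 of 22 tested rose and 1 fell from fetal to neonatal cultures, 6 rose and 10 fell from fetal to adult cultures, and 5 rose and 8 fell from neonatal to adult cultures. These were 27.3%, 72.7% and 59.1% of the list, against 36.3%, 70.5% and 63.5% of all tested genes. Their median log2 differences were -0.0014, -0.55 and -0.55, and those of all tested genes were -0.0053, -0.013 and -0.0065. Ndst1, which starts the sulfation of heparan sulfate, stood at 61.4 ± 5.90 (SD, n = 3), 65.8 ± 2.51 and 30.1 ± 1.04 CPM and fell by 1.03 from fetal to adult cultures on the log2 scale (edgeR adjusted p = 4.05e-06). Sdc3, a syndecan core protein, stood at 202 ± 31.0, 390.4 ± 14.2 and 635 ± 63.4 CPM and rose 1.94-fold from fetal to neonatal cultures and 3.15-fold from fetal to adult cultures (edgeR adjusted p = 0.000456 and 2.13e-06). Hs3st1, which adds a rare sulfate to heparan sulfate, stood at 0.539 ± 0.226, 0.895 ± 0.255 and 6.58 ± 1.46 CPM and rose 12.1-fold from fetal to adult cultures (edgeR adjusted p = 1.37e-05). The macrophage markers given above were highest in the adult libraries, and their part in these differences was not tested.

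Among signal transducers, 4 of 21 tested rose and none fell from fetal to neonatal cultures, 6 rose and 8 fell from fetal to adult cultures, and 5 rose and 10 fell from neonatal to adult cultures, with median log2 differences of 0.02, -0.07 and -0.16. The called shares were 19%, 66.7% and 71.4%, against 36.3%, 70.5% and 63.5% of all tested genes. Mapk3, which encodes ERK1, stood at 112 ± 4.05 (SD, n = 3), 142 ± 3.51 and 190.3 ± 5.30 CPM in fetal, neonatal and adult cultures and rose 1.69-fold from fetal to adult cultures (edgeR adjusted p = 2.46e-06). Map2k2, a MEK kinase, stood at 97.7 ± 6.08, 113 ± 6.16 and 178 ± 5.95 CPM and rose 1.83-fold from fetal to adult cultures (edgeR adjusted p = 3.85e-06). Both directions held under the 16 alternative settings run, scaling by library size included.

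Feedback inhibitors and ERK target genes showed no common direction. Of 18 tested, 2 rose and 5 fell from fetal to neonatal cultures, 6 rose and 6 fell from fetal to adult cultures, and 7 rose and 5 fell from neonatal to adult cultures, with medians of 0.06, 0.15 and 0.15 on the log2 scale. The called shares were 38.9%, 66.7% and 66.7%, against 36.3%, 70.5% and 63.5% of all tested genes. Spry1, a Sprouty inhibitor of receptor tyrosine kinase signalling, stood at 25.3 ± 2.18 (SD, n = 3), 88.8 ± 2.99 and 85.7 ± 27.5 CPM and rose 3.51-fold from fetal to neonatal and 3.39-fold from fetal to adult cultures (edgeR adjusted p = 0.000236 and 3.72e-05). Myc, a transcription factor of growth, stood at 74.6 ± 2.78, 56.2 ± 2.42 and 174 ± 29.6 CPM, and it rose 2.34-fold from fetal to adult cultures (edgeR adjusted p = 7.68e-06). It fell by 0.41 from fetal to neonatal cultures on the log2 scale (edgeR adjusted p = 0.0180), a call lost without neonatal replicate 1 or 2 (edgeR adjusted p = 0.0658 and 0.0616). Ccnd1, the cyclin that starts the cell cycle, stood at 218 ± 34.4, 189 ± 2.21 and 413 ± 16.2 CPM and rose 1.89-fold from fetal to adult cultures (edgeR adjusted p = 3.23e-05). Over all pathway lists together 19, 44 and 42 of 64 tested genes were called in the 3 comparisons, 29.7%, 68.8% and 65.6% of them, near the 36.3%, 70.5% and 63.5% of all tested genes.

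**Figure D4:**
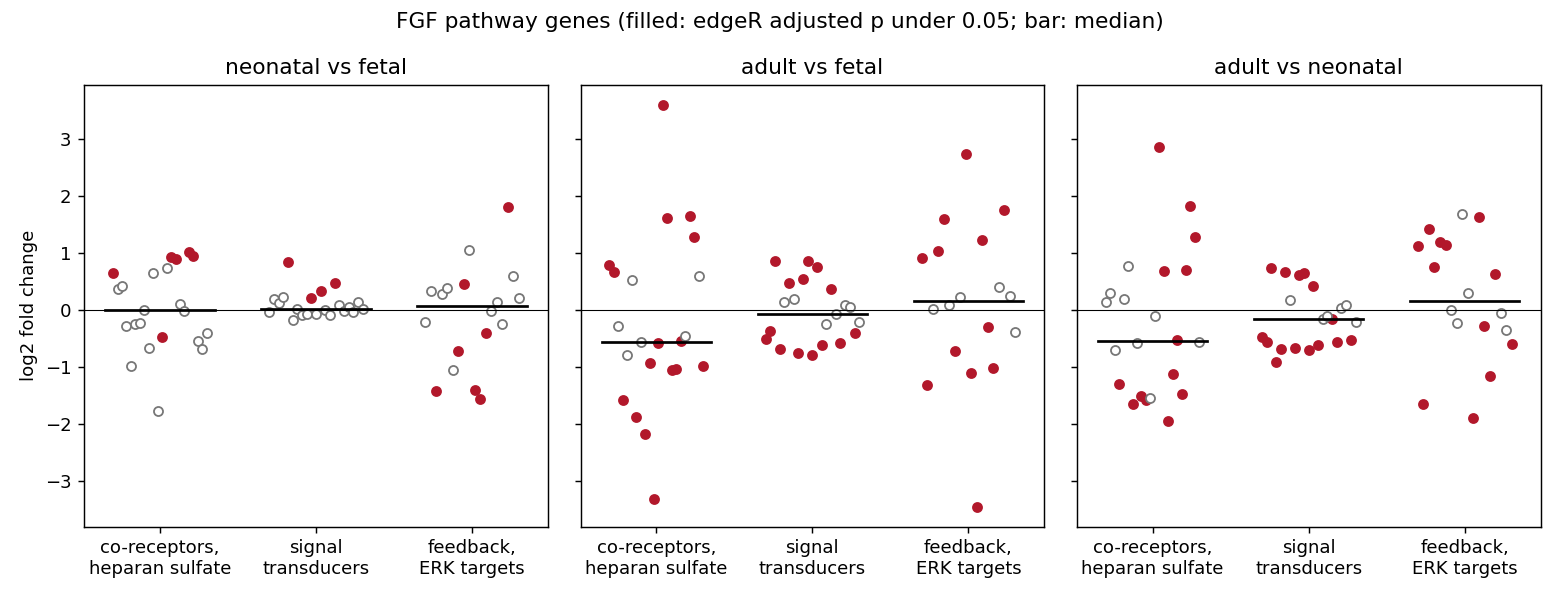
Log2 fold changes (y axis) of the tested co-receptor and heparan sulfate genes, signal transducers, and feedback inhibitors and ERK target genes in the 3 pairs of ages, 1 point per gene, filled where called and with a bar at each median. Co-receptor and heparan sulfate genes spread widest in the adult comparisons with a median of -0.55, while all transducers stay within 1 of 0.

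The genes most like each FGF gene over the 9 libraries are a description without a test, because all points share their libraries, the 3 ages and the mix of cells in each flask. Likeness was the Pearson correlation of log2 CPM over 9 libraries among genes of at least 5 CPM on average, and without fetal replicate 3 it is given over 8. Fgfr3 was most like C1qtnf1, a secreted C1q and TNF related protein (r = 0.998 over 9 and 0.998 over 8), then Sepp1 and Scara5. Fgfr1 was most like the zinc finger gene Zfp521 (r = 0.992 and 0.994), then Hgf and Kdelc2. Fgfr2 was most like the cell cycle inhibitor Cdkn1b (r = 0.991 and 0.990), then Errfi1 and Mxd1. Fgfr4 was most like Plekhg5 (r = 0.993 and 0.988), then Pkig and Tpt1. Fgf10 was most like the tubulin gene Tubb3 (r = 0.982 and 0.981), then Pigq and Vps25. Fgf18 was most like the mitochondrial transcription factor gene Tfam (r = 0.993 and 0.991), then Ptgs2 and Hsph1. Fgf1 was most like Chsy1, a chondroitin synthase (r = 0.987 and 0.985), then Epb41l4a and Ccdc126. Fgf7 was most like the nucleolar gene Npm1 (r = 0.984 and 0.957), then Apobec3b and Fosl1. Fgf9 was most like Polrmt, the mitochondrial RNA polymerase (r = 0.946 and 0.948), then Cd59 and Btg1. Fgf2 had the weakest leading likeness, with Acot3 (r = 0.889 and 0.917), then Agpat2 and Cdca7l. The gene that led for each of the 10 was a different one.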

How the data were processed

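RNA from 9 cultures was measured as deposited raw counts per gene. Per the file headers, the authors counted reads with featureCounts 1.6.3 on an rn6 annotation, giving only annotation and output options, so strand was not used and reads in several places were left out. The submitters' processing notes also name FastQC, Trimmomatic 0.39, STAR 2.5.2b and DESeq2, without their role. A second deposited table of normalized signal values equalled the count divided by 1 factor per library in 100% of 12786 genes (largest deviation 4.96e-05%) and was used for that check only. Raw counts were tested in R 4.3.3 with edgeR 4.0.16 (filterByExpr, TMM, robust quasi-likelihood, age as the only term, limma 3.58.1 loaded), tested first on simulated data. CPM used TMM-scaled library sizes, RPKM the exon lengths of the count table, and log2 CPM a prior count of 2. Shares were compared by exact permutation. The floor of 3 counts covers counting error only.

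Groups came from the sample titles. The members, pathway lists and marker lists were chosen with earlier results of these data known. The rule for named genes took all 10 members in every library, the 3 genes of each pathway list with the smallest adjusted p for any difference among ages (1 of them is not reported here), and the 3 genes most correlated with each member. Alternatives were DESeq2 1.42.0, its size factors, library size only, no filter, at least 1 CPM in 3 libraries, a fit of 2 ages, a replicate block, and leaving out each library. No pair of libraries agreed within sampling noise. Listed genes absent from the symbols of the table were not analysed here.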

Additional observations from a re-analysis of the deposited data

How the results depend on the processing

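Of 479 values for the 10 genes in 3 comparisons and up to 16 alternative settings, 452 kept direction and call, 8 lost the call, 12 gained it and 7 changed sign, and 16 of the 30 comparisons never changed. The number of FGF genes called ran from 5 to 8, 6 to 7 and 3 to 6. All genes called between neonatal and fetal cultures were 4114, and leaving out 1 library gave 2476 to 4679 (2607, 2476 and 2575 without neonatal replicate 1, 2 or 3). Sign changes, none of them called, were Fgfr2 neonatal minus fetal at -0.15 with library size only, -0.0572 without fetal replicate 1 and -0.0592 without fetal replicate 2 (leaving out 1 library gave up to 0.22), Fgfr2 at -0.0883 (adult minus fetal, up to 0.43) and -0.12 (adult minus neonatal, up to 0.39) without adult replicate 1, Fgf9 adult minus fetal at -0.0514 without fetal replicate 3 (up to 0.68), and Fgf7 adult minus neonatal at -0.19 without adult replicate 1 (up to 1.06). Among pathway genes, Fgf22 neonatal minus fetal was 0.20 without fetal replicate 1 (down to -0.22), Ndst1 neonatal minus fetal was -0.0640 with library size only, and Spry1 adult minus neonatal was 0.00237 with library size only and 0.0435 and 0.10 without adult replicate 2 or 3 (down to -0.34). The cause of these changes was not tested. The adult minus fetal difference in the Fgfr1 share was 1.14 points with Fgfrl1 summed and otherwise ran from -14.98 to -11.5 points without 1 library. That of the Fgf2 share was -0.196 points without adult replicate 2 and up to 2.34 without another library. Replicate numbers did not pair the libraries (9 correlations from -0.065 to 0.052), and with a replicate block 6, 6 and 4 FGF genes and 3713, 7801 and 6985 of all genes were called. Fgf7, Fgf9 and Fgfr4 had the fewest counts.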
